A study of Mus musculus with 54 samples.

Results

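The let-7 family was followed through 8 groups of mouse small intestinal cells, as the 11 let-7 rows of a deposited small RNA table whose names carry no suffix and whose mean over the 30 labelled libraries reached 50 RPMMM. RPMMM is the authors' unit of relative abundance, in which every column sums to about 1000000. The 11 rows are 10 5p arms and 1 3p arm, out of 18 let-7 rows considered, 635 rows with plain names and 2602 rows in all, and 1 further letter of the family is not analysed here. The other 7 rows, all 3p arms, lay under the minimum. The lowest row inside it was let-7d-3p with a mean of 558 RPMMM, and the highest outside were let-7a-1-3p and let-7c-2-3p with 15.4 RPMMM each.

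MicroRNAs of the let-7 family are short RNAs that guide Argonaute proteins to messenger RNAs with a site matching the seed near the 5′ end, and so lower the output of those messages. The family is known for its rise as cells leave the embryonic state, for the block of its maturation by the RNA-binding proteins Lin28a and Lin28b, and for targets such as Hmga2, Igf2bp1 and Myc. In the intestine, Lin28 proteins and let-7 are known to act against each other in the growth of the crypt epithelium.

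Every 5p member carries the same seed, so the mature sequences are shown to let the few bases that separate the members be seen beside their different levels. The 10 5p rows came from 7 distinct sequences, because let-7a, let-7c and let-7f are each encoded by more than 1 gene with an identical product. All 11 rows, and miR-98-5p of the same seed, matched the RefSeq entries of build GRCm38.p6, and bases 2 to 8 are in capitals.
let-7a-5p: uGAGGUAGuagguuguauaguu
let-7b-5p: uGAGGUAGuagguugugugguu
let-7c-5p: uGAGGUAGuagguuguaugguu
let-7d-5p: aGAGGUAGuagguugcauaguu
let-7f-5p: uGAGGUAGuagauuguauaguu
let-7g-5p: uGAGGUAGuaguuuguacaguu
let-7i-5p: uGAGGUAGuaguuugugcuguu
miR-98-5p: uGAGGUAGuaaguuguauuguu
let-7d-3p: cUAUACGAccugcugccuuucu

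Counted from 1 at the 5′ end, with the base of let-7a first, let-7c differed from let-7a by A19G and let-7f by G12A. The changes were A17G and A19G in let-7b, U1A and U16C in let-7d, and G12U and U18C in let-7g. In let-7i they were G12U, A17G, U18C and A19U, and in miR-98 they were G11A and A19U. None of these lies in the seed. Of 22 bases, 7 were G or C in let-7f, 8 in let-7a and let-7g, 9 in let-7c, let-7d and let-7i, and 10 in let-7b.

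The members come from 7 places in the GRCm38.p6 annotation, and several lie close to another microRNA gene on the same strand. On the minus strand of chromosome 13, Mirlet7d (chr13:48536012-48536114), Mirlet7f-1 (chr13:48537829-48537917) and Mirlet7a-1 (chr13:48538179-48538272) lie within 2261 bp, in exons of the long noncoding RNA 6720427I07Rik. On the plus strand of chromosome 15, Mirlet7c-2 (chr15:85706603-85706697) and Mirlet7b (chr15:85707319-85707403) span 801 bp in an exon of Lncppara. Mirlet7c-1 (chr16:77599657-77599750, plus strand) lies beside Mir99a in an intron of Mir99ahg, and Mirlet7a-2 (chr9:41536716-41536811, plus strand) lies between Mir100 and Mir125b-1 in an intron of 3110039I08Rik. Mirlet7g (chr9:106178840-106178927, plus strand) is intronic in Wdr82, and Mirlet7f-2 (chrX:151912346-151912428, plus strand) lies with Mir98 in an intron of Huwe1. Mirlet7i (chr10:122985640-122985724, minus strand) overlaps an exon of D630033A02Rik.

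All cells were from C57BL/6J mice, and ages are not given for these samples. Crypts and villi were dissected (4 libraries each). Sox9-EGFP Low cells, the weakly fluorescent fraction of the crypt in mice with a Sox9 reporter, are known to be rich in stem cells. They were sorted from chow-fed, germ-free and conventionalized mice (4 each), and Sox9-EGFP Negative cells from the chow-fed mice (4). Conventionalized is the usual word for germ-free mice given a microbiota, and the time since is not given. Cd24-Low sorted cells had 4 libraries and Lgr5-High sorted cells 2, labelled Lgr5 in their titles and Lgr4 elsewhere. The labels state neither the promoters that drive the reporters, nor the sort gates, nor whether animals were pooled. Column names give an animal for the Sox9-EGFP libraries, while nothing says that the crypt, villi, Cd24-Low and Lgr5-High libraries came from separate animals, so their p-values measure only the spread between those libraries. Mouse 3 of the chow group is labelled chow but both of its columns name a high fat diet. Some results are also given without it, and all other values include it. APC mutant and control intestinal cells, 2 samples a group, have only the authors' averages here, and the labels do not name the mutant allele.

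Markers of epithelium (miR-200 family, miR-192, miR-194 and miR-215, 8 rows) summed to 106004 to 711346 RPMMM over the libraries. Of these, miR-200a-3p, miR-200b-3p and miR-429-3p had a lowest value of 0 in Negative cells. The 5 mesenchymal markers, nearly all of it miR-143-3p, summed to 13593 to 25854 RPMMM in crypts and 5803 to 51967 in villi, against 3.54 to 550 in the sorted groups. The 3 enteroendocrine markers summed to 162280 to 252020 RPMMM in germ-free cells and 1903 to 2944 in Negative cells, the ends of the range over the groups. The largest of the 3 was miR-375-3p in germ-free cells (mean 137123 RPMMM) and miR-7a-1-5p in Negative cells (mean 1717 RPMMM). The lowest value listed above 0 in a library was 0.33 to 5.92 RPMMM, so every member lay well above the listing limit.

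The let-7 5p rows made up a large share of the small RNA values, most in crypts and least in Negative cells. The sum of the 10 5p rows was 43.6% ± 2.47 of reads in crypts (SD, n = 4), 32.6% ± 0.285 in Lgr5-High cells (n = 2) and 29.4% ± 4.48 in chow Low cells (n = 4). It was 27.9% ± 3.01 in germ-free Low cells, 27.3% ± 5.01 in conventionalized Low cells and 26.2% ± 5.05 in villi (n = 4 each). Cd24-Low cells held 16.7% ± 2.31 and Negative cells 7.41% ± 0.96 (n = 4 each). Without mouse 3 the chow Low cells held 31.0% ± 3.84 (n = 3). The labels do not say how reads that fit both copies of let-7a, let-7c or let-7f were counted, so these sums may hold some reads more than once. With 1 row per mature sequence the shares were 30.5% in crypts, 18.1% in villi, 20.5% in chow Low cells and 5.19% in Negative cells.

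The copies of one sequence moved as one. Across the 30 libraries the ratio of let-7a-1-5p to let-7a-2-5p was 1.00 to 1.01, that of let-7c-1-5p to let-7c-2-5p 0.884 to 0.994 and that of let-7f-1-5p to let-7f-2-5p 0.816 to 0.967. The values therefore do not tell which gene made the microRNA, and the paired rows are not independent members.

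The members were ordered differently in the 8 groups. let-7b-5p ranged from a mean of 12560 ± 1684 RPMMM in Negative cells (n = 4) to 119460 ± 18228 in crypts (n = 4), and ranked between 1 and 9 among the plain-named rows in all libraries. let-7c-1-5p had the same ends, 9664 ± 1539 and 83863 ± 7910 RPMMM, and let-7a-1-5p as well, 3744 ± 320 and 33375 ± 2977. let-7f-1-5p and let-7g-5p were instead highest on average in conventionalized Low cells, at 21740 ± 1380 and 20800 ± 2823 RPMMM (n = 4 each), with crypts at 11191 ± 2528 and 14021 ± 3245. let-7i-5p was lowest in Lgr5-High cells, at 6786 ± 623 RPMMM (n = 2), and highest in crypts, at 25274 ± 5834. Of the 77 steps between neighbouring groups in these orders, 60 were between groups whose libraries overlapped. This is a description and not a test of each step. It counts both rows of let-7a, let-7c and let-7f, and the share over all rows was not computed. For let-7b-5p the steps without overlap were crypts above Lgr5-High cells, villi above Cd24-Low cells and Cd24-Low above Negative cells. For let-7f-1-5p and let-7g-5p every neighbouring step overlapped.

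**Figure D1:**
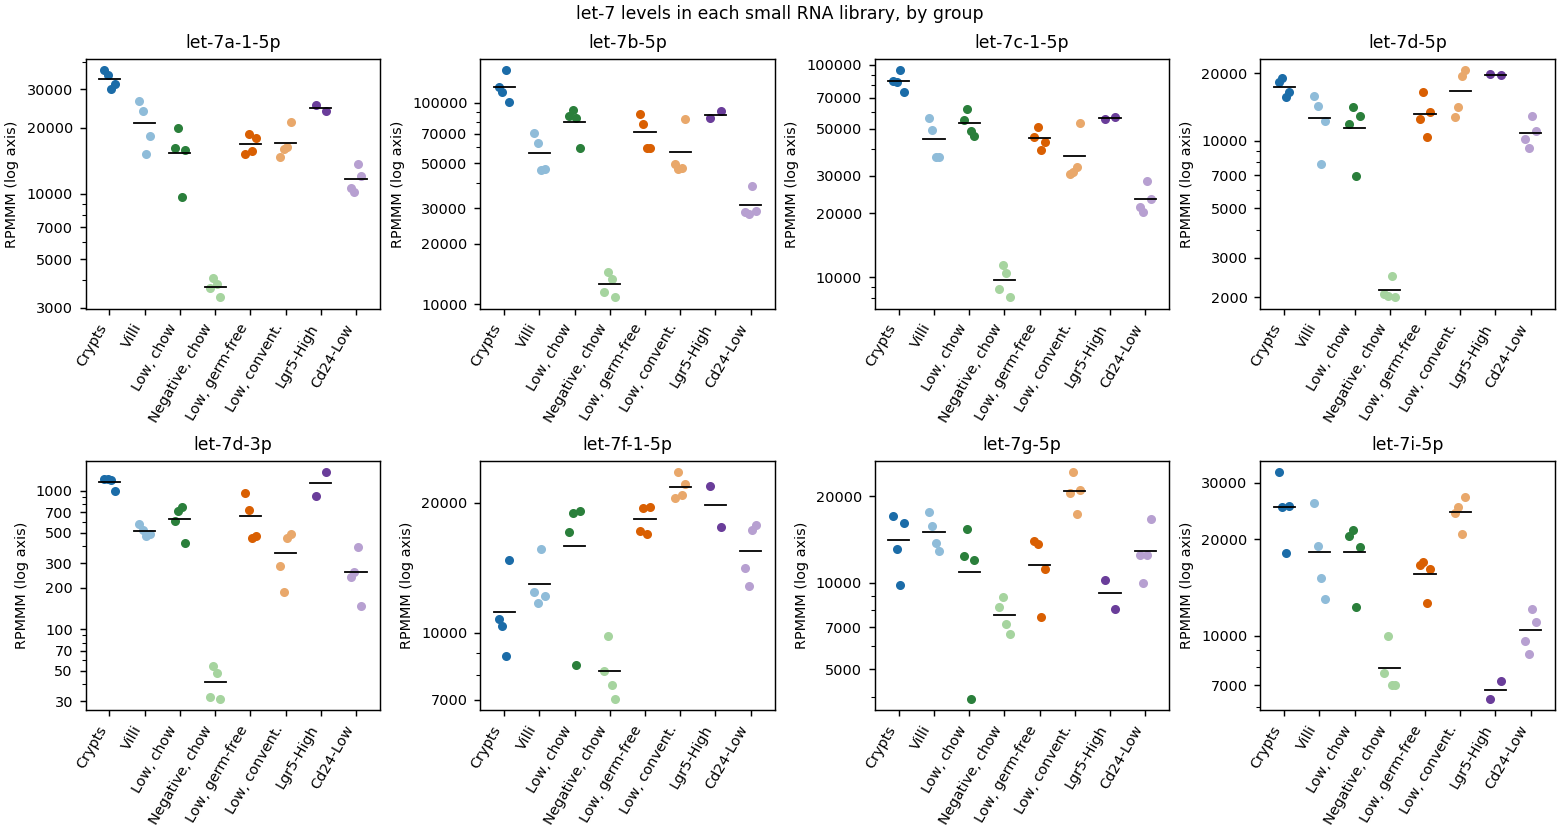
Level of 1 row for each mature let-7 sequence in RPMMM (vertical log axis, range differs by panel) in the 30 libraries (points) of 8 groups (horizontal axis), with group means as lines. Negative cells lie below all other groups for let-7a, let-7b, let-7c and both let-7d arms, while the groups lie closer together for let-7f, let-7g and let-7i.

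The make-up of the pool shifted with the groups. Taking 1 row per sequence, let-7b was 39.1% ± 3.97 of the pool in crypts and 24.2% in Negative cells (n = 4 each). let-7f was 3.72% of the pool in crypts and 15.7% in Negative cells, and let-7g was 4.64% and 14.9%. let-7i was 3.04% of the pool in Lgr5-High cells, its lowest mean over the groups, and 15.2% in Negative cells, its highest. These shares are descriptions without a test, and members of a pool that sums to a fixed total cannot move independently.

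**Figure D2:**
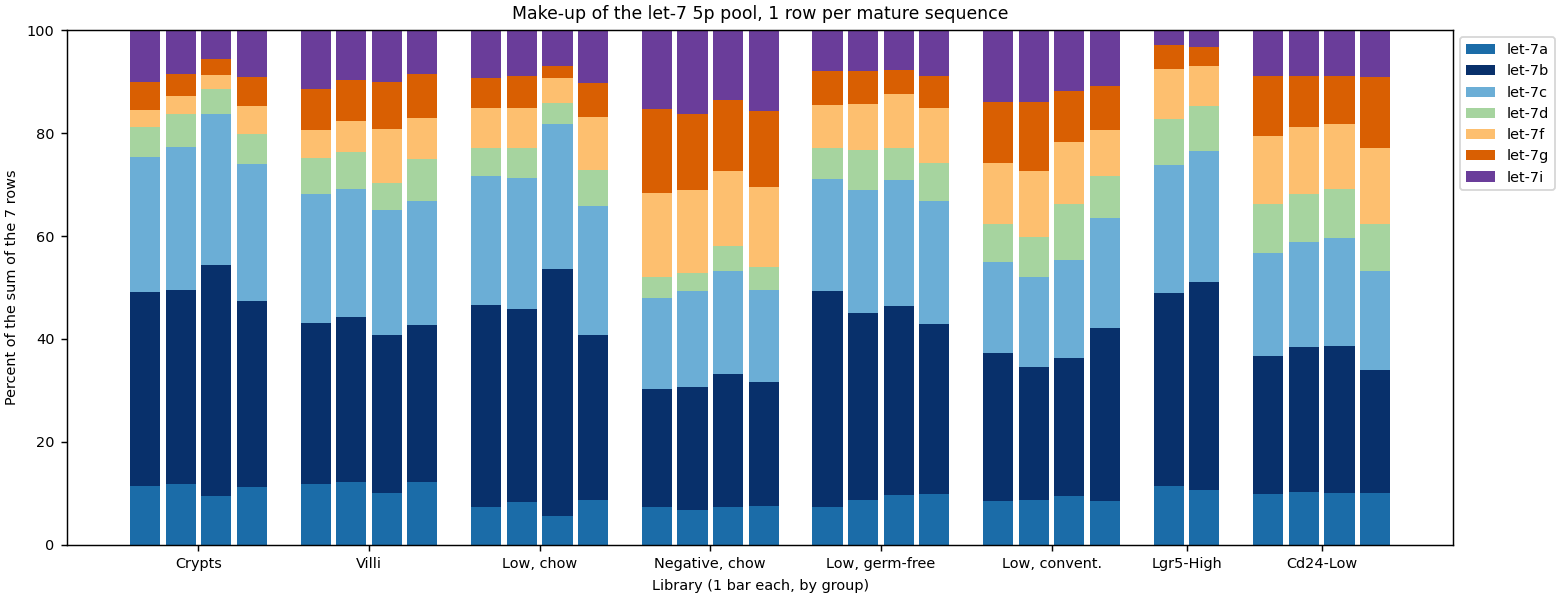
Percent of the let-7 5p pool (vertical axis) held by each of 7 mature sequences in each library (1 bar per library, by group on the horizontal axis). let-7b (39.1% on average) and let-7c (27.5%) hold most of the pool in crypts, while let-7f, let-7g and let-7i (upper 3 segments) take their largest part in Negative cells.

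Ratios between members of 1 library are not altered by any scaling factor per library. The ratio of let-7b-5p to let-7f-1-5p was 6.84 to 16.3 in crypts and 2.95 to 5.67 in villi, which do not overlap. It was 3.09 to 9.91 in chow Low cells and 1.41 to 1.77 in Negative cells, again without overlap. The upper end was mouse 3, whose columns name a high fat diet, and the other 3 chow Low libraries were at 3.09 to 5.01. The ratio of let-7d-5p to its own 3p arm, both cut from 1 hairpin, had a median of 15.3 and a highest value of 16.4 in crypts, below all villi libraries at 16.6 to 27.6. It was 9.12 to 30.8 in chow Low cells (19.6 to 30.8 without mouse 3), 12.8 to 28.4 in germ-free cells, 41.9 to 76.3 in conventionalized cells and 37.1 to 64.5 in Negative cells. The 5p arm was thus the more abundant in all 30 libraries, and the ratios of germ-free and conventionalized cells did not overlap.

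**Figure D3:**
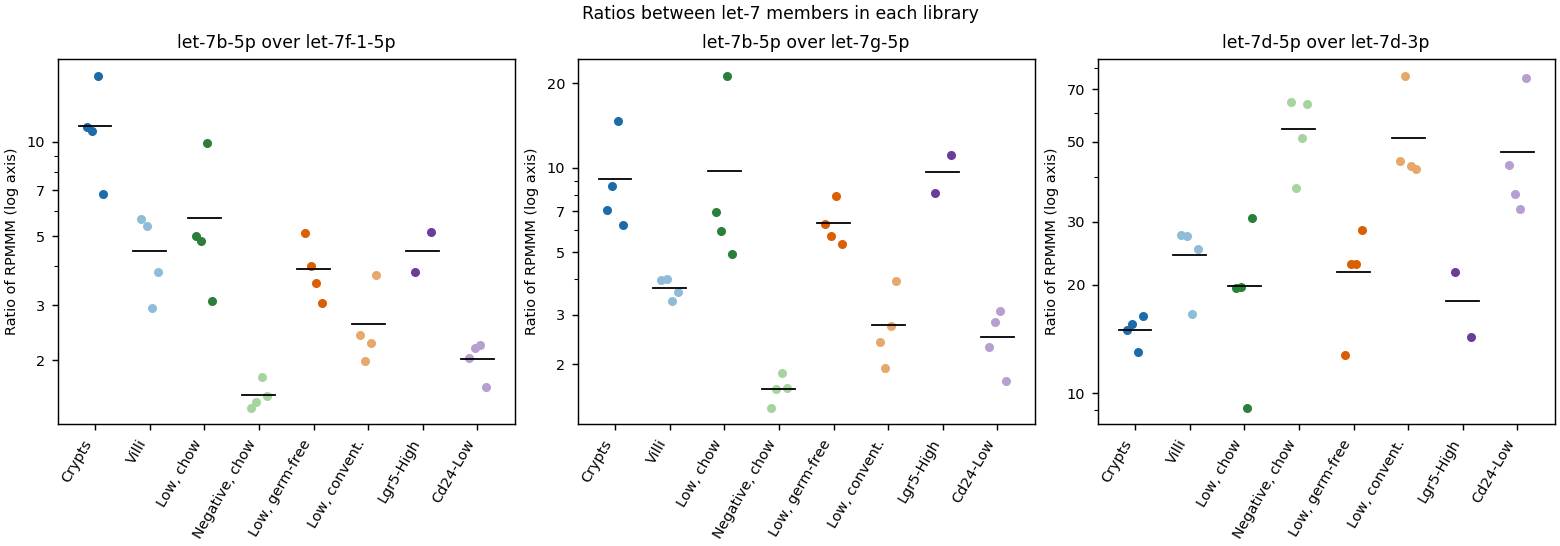
Ratio of 2 let-7 rows within a library (vertical log axis) for the 30 libraries (points) by group, with group means as lines: let-7b-5p over let-7f-1-5p, let-7b-5p over let-7g-5p, and let-7d-5p over let-7d-3p. The first 2 ratios are lowest on average in Negative cells, and the arm ratio of let-7d is at least 32.5 in every conventionalized, Negative and Cd24-Low library.

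The Low and Negative fractions compare Sox9-EGFP Low cells with Sox9-EGFP Negative cells of the same 4 chow-fed mice. All 11 members were higher in Low cells and 10 passed limma's test at a two-sided Benjamini-Hochberg adjusted p under 0.05, against 47.1% of the 221 rows tested that were called higher. The members' median log2 difference was 2.00 and that of all rows tested 0.84. Differences are on the log2(RPMMM + 1) scale here and below. In bulk cells fewer cells of a type and less RNA per cell cannot be told apart.

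let-7d-3p, the passenger arm of the let-7d hairpin, measured 603, 713, 762 and 421 RPMMM in the 4 Low libraries and 32.1, 54.5, 48.5 and 31.3 in the matching Negative libraries. The groups did not overlap, and the difference was 3.88 ± 0.30 (SE, adjusted p = 7.95e-06). let-7b-5p measured 85593, 91369, 83666 and 59240 RPMMM in Low cells and 11503, 14506, 13383 and 10848 in Negative cells. Every Low library was thus above every Negative one, by 2.66 ± 0.17 (adjusted p = 2.86e-06). let-7c-2-5p and let-7c-1-5p followed at 2.51 ± 0.15 and 2.46 ± 0.16, and let-7d-5p at 2.37 ± 0.24, with groups that did not overlap. let-7a-1-5p differed by 2.00 ± 0.23 and let-7i-5p by 1.19 ± 0.22. let-7f-2-5p and let-7f-1-5p differed by 1.00 ± 0.25 and 0.90 ± 0.28, close to the median of all rows, and the let-7f-1-5p groups overlapped.

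let-7g-5p was the member that did not pass, at 0.34 ± 0.40 (adjusted p = 0.488). It measured 12356, 15389, 3936 and 12018 RPMMM in Low cells and 8225, 8908, 7184 and 6607 in Negative cells, so that of the Low libraries only that of mouse 3, whose columns name a high fat diet, lay under the Negative range. Without that library let-7g-5p differed by 0.78 and passed (adjusted p = 0.0027), and the other 10 members were still called, at 1.18 to 3.77. In that run 111 of 217 rows were called higher, and the median of all rows was 1.05, above the value of let-7g-5p. The Negative library of mouse 3 was kept in it. The call of let-7f-1-5p was lost without Low library 1, 2 or 4 or Negative library 4, at adjusted p of 0.0536 to 0.0577. miR-98-5p, of the same seed, differed by 0.58 ± 0.30 (adjusted p = 0.121).

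RPMMM values are shares, and with median-of-ratios scaling the median of all rows moved from 0.84 to -0.08, while the rows called higher and lower went from 104 and 37 to 72 and 63. On that scale let-7a, let-7b, let-7c and both arms of let-7d were still higher, 7 of 11 rows, at 1.07 to 2.97. let-7i-5p was at 0.26, let-7f-2-5p at 0.076, let-7f-1-5p at -0.025 and let-7g-5p at -0.58, and none of these 4 passed. With quantile normalization the median of all rows was 0.012, let-7a, let-7b, let-7c and let-7d were still called higher, and let-7g-5p was called lower (-0.93, adjusted p = 0.0136). The summed epithelial markers were 196148 to 263056 RPMMM in Low cells and 683910 to 711346 in Negative cells, and the enteroendocrine markers 64418 to 173055 and 1903 to 2944. Leukocyte markers summed to 436 to 2022 and 48.5 to 201 RPMMM, and mesenchymal markers to at most 75.2 and 112 to 144, with 3 of the 5 at 0 in both. None of these sums overlapped. Within the epithelial list miR-215-5p and miR-194-1-5p had lower means in Low cells, at 48485 and 6430 RPMMM against 462822 and 108418. The miR-200 family rows and miR-192-5p had higher means in Low cells. Any part of these marker rows in the result was not tested. By their column names the 4 Low libraries share lane number 1, while Negative libraries are split over 4 and 5. Fraction and lane thus cannot be told apart in these 8 libraries. The names give no run, so libraries with the same lane number may come from different runs. Low cells of germ-free mice with lane number 4 and of conventionalized mice with number 5 had 2 libraries each. All 11 members were higher there than in the Negative libraries of the same number, without overlap. The share of all rows that would be apart in this way was not computed, and rows for copies of 1 sequence are not separate. The mice compared here differ in microbiota, and the part of the lane was not tested.

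**Figure D4:**
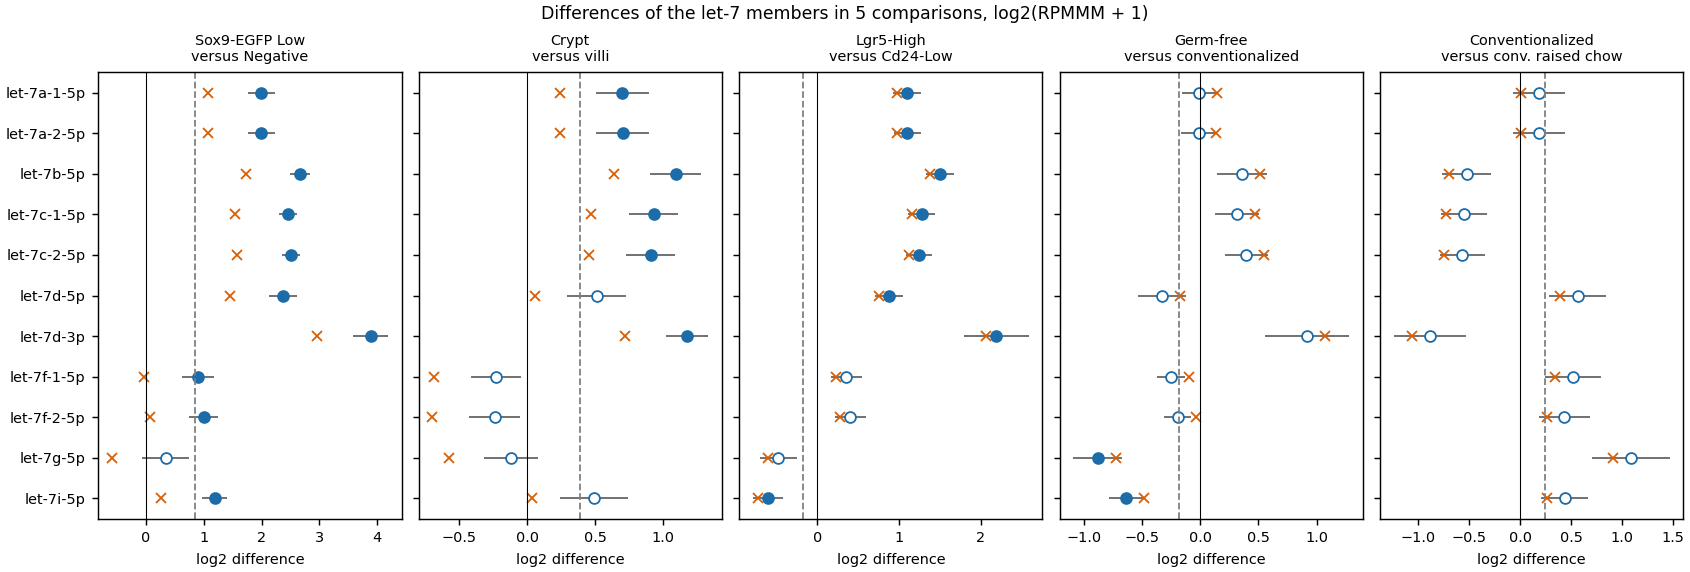
Log2 difference of each let-7 member on the log2(RPMMM + 1) scale (horizontal axis, its range differs by panel) in 5 comparisons, first group minus second, with SE as bars and filled points at an adjusted p under 0.05. Dashed lines mark the median of all rows tested, and crosses give the value with median-of-ratios scaling, which lies below the point for every member in the first 2 panels.

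Crypts and villi compare the dividing base of the epithelium with its differentiated projections. In crypts 6 of 11 members were called higher and 0 lower, against 36.4% and 10.5% of the 239 rows tested. The 6 were let-7a (both rows), let-7b, let-7c (both rows) and let-7d-3p. The median difference was 0.70 for the members and 0.39 for all rows.

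let-7d-3p measured 1224, 1223, 1203 and 1005 RPMMM in crypts and 575, 519, 476 and 487 in villi. No library overlapped, and the difference was 1.18 ± 0.16 (adjusted p = 5.34e-04). let-7b-5p measured 119955, 112717, 144166 and 101001 RPMMM in crypts and 70328, 63150, 46068 and 46684 in villi, again without overlap, a difference of 1.09 ± 0.19 (adjusted p = 0.0016). let-7c-1-5p and let-7c-2-5p differed by 0.93 ± 0.18 and 0.91 ± 0.18, and let-7a-1-5p by 0.70 ± 0.19 (adjusted p = 0.0148). The let-7f and let-7g rows had the other sign. let-7f-1-5p measured 10758, 10383, 8849 and 14774 RPMMM in crypts and 12410, 11710, 15627 and 12163 in villi, with a difference of -0.23 ± 0.19 (adjusted p = 0.36). let-7g-5p was at -0.12 ± 0.20, and let-7d-5p and let-7i-5p at 0.51 ± 0.22 and 0.49 ± 0.25, with overlapping groups. The last 2 passed without villi library 1, at adjusted p of 0.0398 and 0.0387.

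With median-of-ratios scaling the rows called higher and lower changed from 87 and 25 to 42 and 60. let-7b-5p (0.63) and let-7d-3p (0.72) were still called higher, while let-7a and let-7c were at 0.24 to 0.47 and did not pass. let-7f-1-5p (-0.69), let-7f-2-5p (-0.70) and let-7g-5p (-0.58) were then called lower, at adjusted p of 0.0107 to 0.0142. With quantile normalization let-7b-5p was at 0.63 and did not pass (adjusted p = 0.0767). let-7d-3p passed with both of these scalings. Without the filter on low values let-7a-1-5p and let-7a-2-5p did not pass (adjusted p of 0.0521 and 0.0511). All 8 libraries were run in lane 4. Leukocyte markers summed to 2230 to 5240 RPMMM in crypts and 1069 to 1635 in villi, epithelial markers to 106004 to 156318 and 315152 to 476170, and enteroendocrine markers to 12644 to 22655 and 6030 to 9054. None of these 3 sums overlapped, while the mesenchymal sums given above did. Their part in the result was not tested. miR-100-5p and the miR-125b rows, neighbours of Mirlet7a-2, had means of at most 23.7 RPMMM in both groups, where let-7a-1-5p had means of 33375 and 20996 RPMMM.

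Lgr5-High cells, known as crypt base stem cells, were set against Cd24-Low cells. Of the 11 members 7 were called higher in Lgr5-High cells and 1 lower, against 16.9% and 22.5% of the 236 rows tested. The members' median difference was 1.10 and that of all rows -0.17. let-7a, let-7b, let-7c and let-7d stood on one side and let-7i on the other.

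let-7d-3p measured 913 and 1370 RPMMM in the 2 Lgr5-High libraries and 237, 260, 396 and 146 in the Cd24-Low libraries, a difference of 2.19 ± 0.39 (adjusted p = 0.0039). let-7b-5p measured 83646 and 90366 RPMMM against 28716, 28018, 38753 and 29064, or 1.49 ± 0.17 (adjusted p = 0.00103). Both Lgr5-High libraries were above all Cd24-Low libraries for these rows. let-7c-1-5p, let-7c-2-5p and let-7a-1-5p differed by 1.27 ± 0.17, 1.24 ± 0.16 and 1.10 ± 0.17 without overlap. let-7d-5p differed by 0.87 ± 0.17 (adjusted p = 0.00558), a call that was lost without Lgr5-High library 1 or 2 (adjusted p of 0.0555 and 0.0541), where the lone library left is assumed to vary like the Cd24-Low ones.

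let-7i-5p ran the other way, at 6346 and 7227 RPMMM in Lgr5-High cells against 9627, 8765, 12098 and 11047. The difference was -0.61 ± 0.18 (adjusted p = 0.0326). Its call was lost without Cd24-Low library 1, 3 or 4 or either Lgr5-High library, at adjusted p of 0.0513 to 0.221. It was also lost with quantile normalization (-0.059), without the filter on low values (adjusted p = 0.0788) and with a spread over all 8 groups (adjusted p = 0.0583). let-7g-5p was at -0.48 ± 0.23 (adjusted p = 0.127) and passed without Cd24-Low library 2 (-0.59, adjusted p = 0.0351). The let-7f rows were at 0.35 ± 0.19 and 0.40 ± 0.19 and did not pass. With quantile normalization 58 rows were called higher and 40 lower, against 40 and 53, and the 7 higher members were still called. Lgr5-High libraries were run in lane 8 and the labels give no lane for Cd24-Low cells, so lane and cell type cannot be told apart. The Lgr5-High and Cd24-Low libraries overlapped in their summed enteroendocrine markers (20245 to 22565 and 19570 to 66755 RPMMM) and leukocyte markers (333 to 739 and 395 to 3296). They did not overlap in mesenchymal markers (3.54 to 7.48 with 3 of 5 at 0, and 167 to 550), endothelial markers (15.1 to 20.5 and 23.4 to 60.4) or epithelial markers (421717 to 425653 and 445205 to 598072). miR-7a-1-5p and miR-7b-5p, of the enteroendocrine list, were also apart, at 1247 to 1569 and 3795 to 25162 RPMMM, and at most 53.4 and 729 to 6170. Within the epithelial list miR-215-5p and miR-194-1-5p had lower means in Lgr5-High cells, at 59230 and 3921 RPMMM against 289092 and 26543. miR-192-5p had a higher mean there, at 303351 RPMMM against 156079, and the miR-200 family rows went both ways. The part of these markers in the result was not tested.

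Germ-free against conventionalized mice asks how the microbiota is reflected in Low cells. let-7g-5p and let-7i-5p were called lower in germ-free cells, 2 of 11 members against 28.6% of the 252 rows tested, and 0 members were called higher, against 13.9%. At an unadjusted p under 0.05 there were 3 members, the other being let-7d-3p, against 54% of all rows tested. The median difference was -0.014 for the members and -0.18 for all rows, so the family as a whole was near the middle of the table.

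let-7g-5p measured 13934, 13611, 7563 and 11123 RPMMM in germ-free mice and 20587, 24278, 17373 and 20963 in conventionalized mice. The groups did not overlap, and the difference was -0.88 ± 0.21 (adjusted p = 0.00917). let-7i-5p measured 16647, 16967, 12681 and 16169 RPMMM against 24068, 25160, 20758 and 26998, a difference of -0.64 ± 0.14 (adjusted p = 0.00703), also without overlap. miR-98-5p was at -0.43 ± 0.16 (adjusted p = 0.0507), and the let-7f rows at -0.25 ± 0.12 and -0.19 ± 0.11. let-7d-3p measured 974, 722, 453 and 473 RPMMM against 287, 185, 454 and 491, and the groups overlapped, at 0.92 ± 0.36 (adjusted p = 0.0638). let-7b-5p was at 0.36 ± 0.21, let-7c-2-5p at 0.39 ± 0.18 and let-7a-1-5p at -0.0060 ± 0.15. Both let-7f rows had groups without overlap and did not pass.

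Conventionalized library 4 decided several of these values. It held 82880 RPMMM of let-7b-5p, where the other 3 held 46862 to 49518. Without it let-7b-5p, let-7c-1-5p, let-7c-2-5p and let-7d-3p were higher in germ-free cells by 0.55, 0.50, 0.58 and 1.11, and all 4 passed (adjusted p of 0.00378 to 0.034). In that run 54 of 254 rows were called higher and 78 lower. With median-of-ratios scaling 55 rows were called higher and 64 lower, against 35 and 72, and let-7c-2-5p (0.55) and let-7d-3p (1.07) were called higher. let-7d-3p also passed with quantile normalization (1.21) and with a spread over all 8 groups (adjusted p = 0.0187). let-7g-5p and let-7i-5p were called lower in every alternative run, each library left out included. By their column names the germ-free libraries carried lane numbers 1, 2 and 4, and the conventionalized ones 1, 3 (library 4) and 5. Outside number 1, lane and microbiota thus cannot be told apart. Lane number 1 was carried by 1 library of each group, and the column names do not say whether these shared a run. There let-7g-5p was 13934 RPMMM in the germ-free and 17373 in the conventionalized library, and let-7i-5p 16647 and 20758. The lane difference of -0.32 for each was smaller than that over all lanes. The summed enteroendocrine markers did not overlap, at 162280 to 252020 RPMMM in germ-free and 56665 to 133349 in conventionalized cells, nor did the mesenchymal markers, at most 79.1 and 141 to 438, and their part in the result was not tested.

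Low cells of conventionalized mice were then compared with those of the chow-fed mice. This comparison shares its conventionalized libraries with the one before and its chow Low libraries with the first, so the 3 are not independent. None of the 11 members passed limma's test in either direction, against 15.2% of the 243 rows called higher and 7.41% called lower, and 4 members had an unadjusted p under 0.05, namely let-7g-5p, let-7c-1-5p, let-7c-2-5p and let-7d-3p, against 42.4% of all rows. let-7g-5p was at 1.08 ± 0.38 (adjusted p = 0.0571), with every conventionalized library, from 17373 to 24278 RPMMM, above every chow library, from 3936 to 15389. It passed without chow library 2 or 3 (1.30 and 0.65, adjusted p of 0.0482 and 0.0328) and with a pseudocount of 10 (adjusted p = 0.0498). let-7f-1-5p was at 0.52 ± 0.27 and let-7i-5p at 0.44 ± 0.23. let-7b-5p, let-7c-1-5p, let-7c-2-5p and let-7d-3p were on the other side, at -0.52, -0.55, -0.57 and -0.88. Without conventionalized library 4, let-7b-5p, let-7c-1-5p and let-7c-2-5p were at -0.72, -0.73 and -0.75 and passed (adjusted p of 0.0259 to 0.0319). In that run 45 of 242 rows were called higher and 22 lower. With a spread over all 8 groups 7 members passed (adjusted p of 0.0044 to 0.0387). On the lower side were let-7b-5p, both let-7c rows and let-7d-3p, and on the higher side let-7d-5p, let-7f-1-5p and let-7g-5p. In that run 65 of 243 rows were called higher and 33 lower. With only the 2 groups in the fit, rows called higher and lower numbered 37 and 18, and 7 and 18 with median-of-ratios scaling. All chow libraries carried lane number 1, as did only 1 conventionalized library, so outside that number lane and group cannot be told apart. In lane 1, let-7g-5p of the 1 conventionalized library was 0.83 above the mean of the chow libraries.

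In the messenger RNA of the same sort, germ-free and conventionalized Low cells (4 libraries each) were compared for 3 lists: genes that make or destroy let-7, genes reported as its targets, and its host genes. None of the 18 maturation genes tested passed limma's test, against 1.95% of the 20214 genes tested that were called higher and 0.292% called lower, and 5 had an unadjusted p under 0.05, as had 20.1% of all genes tested. Of the 30 targets 0 passed and 5 had such a p, a smaller share than over all genes. Of the 3 host genes tested 0 passed and 2 had such a p. The median log2 difference, on log2(normalized count + 1), was -0.08 for the maturation genes, -0.10 for the targets and 0.11 for all genes.

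Lin28a, which blocks let-7 maturation, measured 23.0, 42.7, 20.9 and 29.3 normalized counts in germ-free cells and 4.07, 4.45, 16.0 and 0 in conventionalized cells. The groups did not overlap at these low values, and the difference was 2.63 ± 0.91 (adjusted p = 0.161). Lin28b, its paralog, had means of 17.3 ± 11.3 and 8.63 ± 8.01 normalized counts, at 0.96 ± 0.98 (adjusted p = 0.559). Dicer1, the enzyme that cuts the hairpin, had means of 233 ± 45.8 and 276 ± 41.8 and a difference of -0.25 ± 0.28. None of these 3 genes passed. The other genes of the list with an unadjusted p under 0.05, named after their values were seen, were Trim71 (1.77 ± 0.70) and Ago4 (1.40 ± 0.50) on the higher side and Tarbp2 (-0.67 ± 0.24) and Hnrnpa1 (-1.22 ± 0.39) on the lower side, at adjusted p of 0.137 to 0.203.

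Among the targets, Hmga2, a chromatin protein, averaged 69.0 ± 13.8 normalized counts in germ-free cells and 85.7 ± 17.3 in conventionalized cells (-0.31 ± 0.39, adjusted p = 0.645). Igf2bp2, an RNA-binding protein, had means of 504 ± 98.9 and 673 ± 109 (-0.42 ± 0.25), and Igf2bp3 90.2 ± 34.4 and 65.9 ± 58.8 (0.86 ± 0.69). Igf2bp1 had means of 110 ± 143 and 33.3 ± 27.0 (1.33 ± 0.83), and 1 germ-free library held 325 normalized counts of it where the other 3 held at most 48.3. The groups of these 4 targets overlapped. The 5 targets with an unadjusted p under 0.05, named after their values were seen, were all on the lower side in germ-free cells: Hmga1 (-1.30 ± 0.39), the transcription factor Myc (-1.15 ± 0.50), the cell cycle genes Ccnd1 (-1.29 ± 0.43) and Cdk6 (-2.12 ± 0.69), and E2f5 (-1.66 ± 0.57), at adjusted p of 0.112 to 0.232. Of the host genes, Wdr82 around Mirlet7g had means of 472 ± 43.7 and 712 ± 136 normalized counts (-0.57 ± 0.24, adjusted p = 0.215), with groups that did not overlap. Mir99ahg around Mirlet7c-1 differed by 1.65 ± 0.64 (adjusted p = 0.200), and Huwe1 had means of 1044 ± 620 and 972 ± 381 normalized counts (-0.0082 ± 0.43). The entries for the let-7 genes themselves, Mirlet7a-1, Mirlet7c-1, Mirlet7d, Mirlet7g and Mirlet7i, were listed at 0 in all 8 libraries. Beside these lists, all 5 enteroendocrine markers were higher in germ-free cells, with Neurod1 called (2.39 ± 0.32, adjusted p = 0.0129), and the 3 cycling markers were lower, with Mki67 called (-1.50 ± 0.34, adjusted p = 0.0406). The 4 stem cell markers were at a median of -1.38, each on the lower side at an unadjusted p under 0.05, and 0 passed. The 4 mesenchymal markers tested were at a median of 1.71 and 0 passed, with Vim at 1.53 ± 0.40 (adjusted p = 0.0763). The part of these markers in the list values was not tested. Over all genes 453 were called, 1 without germ-free library 1 and 684 without germ-free library 2.

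For APC mutant and control intestinal cells the authors' deposited table gives 1 average a group and the authors' own test. In the authors' deposited table let-7g-5p had an average of 77868 in the mutant and 111523 in the control cells, a log2 fold change of -0.52 (SE 0.157, adjusted p = 0.00722). It was the only 1 of the 11 members under an adjusted p of 0.05 in the authors' deposited table, where 6.32% of 1060 rows were called lower. The other 10 had adjusted p of 0.589 to 0.993 in the authors' deposited table, with log2 fold changes from -0.33 for let-7b-5p to 0.32 for let-7d-3p. The 10 5p rows summed to 19.9% of the mutant and 13.3% of the control column total in the authors' deposited table, as a description of averages without replicates. These column totals were unequal, at 3.83e+06 in the mutant and 5.86e+06 in the control, so the shares do not show more let-7 in the mutant. The members' median log2 fold change was -0.014, and that of all rows over 50 in both averages -0.015. The description of 1 of the 2 controls carries a word used for a mutant, so the sign rests on the authors' column names.

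Across the 30 libraries, the 3 plain-named rows outside the family whose level was most like the sum of the let-7 5p members were miR-320-3p (Pearson r = 0.966), miR-328-3p (r = 0.963) and miR-423-5p (r = 0.956), out of 152 rows compared. Within the family, let-7b-5p had an r of 0.990 with let-7c-1-5p and 0.310 with let-7g-5p. These are descriptions over libraries that share groups, and each value is a share of its library.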

How the data were processed

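Small RNA was measured in 30 labelled libraries and mRNA in 8 of the libraries used here. Per the labels' protocols, small RNA libraries followed the TriLink CleanTag kit, and mRNA libraries the SMARTer kit for ultra low input together with Nextera XT. The small RNA table deposited by the authors holds RPMMM, treated as an RPM unit because each column sums to about 1000000. The mRNA table deposited by the authors holds normalized counts, a signal whose normalization the labels do not state. The authors' deposited APC table gives average signal, log2 fold changes with standard errors, and adjusted p-values. The submitters' processing notes name Cell Ranger, STAR, Salmon, DESeq2 and mm10, with no role for any of them. How reads were assigned to identical copies is not stated. A further 4 columns matched no sample and were not used, and 381 of 48440 mRNA entries without a name (0.043% to 0.0804% of normalized counts) were left out.

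Whole reads were sought among the low RPMMM values only, within 0.02 read plus 0.006 RPMMM. If the lowest listed value stands for about 10 reads, an assumption made after the values were seen, 51.5% to 84.4% came out as whole. A free search gave 56.5% to 94.6%, so no count test was run. Under the assumption depth was 1745000 to 30905000 reads, and the free search gave up to 3.00 times that. Groups were compared with limma 3.58.1 in R 4.3.3 (lmFit, eBayes with a trend) on log2(value + 1), only the 2 groups in each fit, rows with a mean of at least 50 RPMMM or genes with at least 10 normalized counts, and Benjamini-Hochberg adjustment over all rows. On simulated data of the same spread with 40 of the rows changed by a log2 value of 2, 78.0% to 93.2% were recovered in the 5 small RNA comparisons. In the mRNA comparison 34.4% of 200 changed genes were recovered.

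Members and lists were chosen with earlier results of these data known. Named were, per comparison, up to 4 called members without overlap with the largest differences, with values for the others by group, plus the neighbours of the genes, miR-98 and 7 fixed mRNA genes; further members were described after their values were seen. Same-numbered Low and Negative libraries come from the same mouse, per the labels' animal names. Their deviations from the group means had correlations of -0.202 to 0.202. Other alternatives were scaling, pseudocount, filter, a spread over all 8 groups and leaving out each library. Figures were drawn with matplotlib 3.10.9.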

Additional observations from a re-analysis of the deposited data

Results flagged for a closer look

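In 91 groups of 4 libraries, 8 had 1 library whose gap to the others was above Dixon's 95% limit; chance flags about 1 in 20 groups, and rows for copies of 1 sequence are not separate. Conventionalized library 4 was high for let-7b-5p (82880 RPMMM, others 46862 to 49518), let-7c-1-5p (52992, others 30571 to 33091) and let-7c-2-5p (55688, others 32728 to 34209). A Cd24-Low library was high for let-7b-5p (38753 RPMMM, others 28018 to 29064). A crypt library was low for let-7d-3p (1005 RPMMM, others 1203 to 1224). A Negative library was high for let-7d-5p (2486 RPMMM, others 1995 to 2072), and a villi library for let-7f-2-5p (16527 RPMMM, others 12477 to 13128). A germ-free mRNA library was high for Igf2bp1 (325 normalized counts, others at most 48.3).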

How the results depend on the processing

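Depth and the small groups limit these results, which cover the spread between libraries only, and Lgr5-High cells had 2 libraries. With median-of-ratios scaling let-7f-1-5p (-0.025) and let-7g-5p (-0.58) reversed between Low and Negative cells, and let-7a-1-5p (0.15) and let-7a-2-5p (0.14) between germ-free and conventionalized cells. With quantile normalization let-7f-1-5p (-0.25), let-7f-2-5p (-0.012) and let-7g-5p (-0.93, then called lower) reversed between Low and Negative cells, let-7a-1-5p (0.23), let-7a-2-5p (0.19) and let-7f-1-5p (0.013) between germ-free and conventionalized cells, and let-7a-1-5p (-0.090) and let-7a-2-5p (-0.079) between conventionalized and chow cells; the cause was not tested. Without the filter on low values, more rows were tested and 336 instead of 141 were called between Low and Negative cells, 173 instead of 112 between crypts and villi, and 186 instead of 93 between Lgr5-High and Cd24-Low cells. Between conventionalized and chow cells 55 rows were called, 25 with median-of-ratios scaling, 28 with quantile normalization and 98 with a spread over all 8 groups. Leaving out 1 library gave 7 to 67 calls there, 54 to 113 between Lgr5-High and Cd24-Low cells, and 1 to 684 instead of 453 in mRNA (1 without germ-free library 1). It moved let-7g-5p between crypts and villi over -0.22 to 0.039, let-7a-1-5p and let-7a-2-5p between germ-free and conventionalized cells over -0.071 to 0.10 and -0.079 to 0.095, and between conventionalized and chow cells over -0.027 to 0.32 and -0.026 to 0.33.

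With the replicate number as a block 139 rows were called between Low and Negative cells, whose numbers pair the mice, and the calls of all 11 members were as without it. Counts elsewhere were 104 for crypts and villi, 117 for Lgr5-High and Cd24-Low, 97 for germ-free and conventionalized, 63 for conventionalized and chow cells, and 494 in mRNA. In these nothing in the labels says that a shared number pairs libraries. Same-numbered libraries had correlations of deviations of 0.11 and 0.35 for Lgr5-High and Cd24-Low cells and -0.55 to 0.40 elsewhere. With the block there, let-7f-1-5p (0.54), let-7f-2-5p (0.58) and let-7g-5p between conventionalized and chow cells (1.08, adjusted p = 0.0384) passed, the first 2 in Lgr5-High against Cd24-Low cells, where let-7i-5p (-0.44) no longer did. In the Lgr5-High and Cd24-Low fit with the block, Cd24-Low libraries 3 and 4 had no same-numbered partner. The differences of that fit thus rest on the libraries numbered 1 and 2.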
